A study of Mus musculus with 16 samples.

Results

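The genes described here are 10 transcription regulators of the circadian clock's secondary loop and output: Nr1d1, Nr1d2, Rora, Dbp, Tef, Hlf, Nfil3, Bhlhe40, Bhlhe41 and Ciart. They were found by symbol among the 24421 genes of the deposited tables, and all 10 were present, with 245 to 23432 reads in each library. mRNA of mouse somatosensory cortex was sequenced in 4 groups of 3 mice, all collected at ZT4, 4 h after light onset. Wild-type C57BL/6 mice and AcPb-/- mice were either left undisturbed (controls) or kept awake by gentle handling for 8 h from ZT20 to ZT4 (SD). AcPb is an isoform, made in neurons, of the interleukin-1 receptor accessory protein encoded by Il1rap. Both strains were homozygotic offspring of lines bred in house, 2 to 3 months old, and the labels give all of them as male. For its wild-type mice the paper instead names Jackson Laboratories as the source. The labels list 16 mice, of which 12 have a column in the tables, and the other 4 were not analysed here.

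In the core clock, the activators BMAL1 (Arntl), CLOCK and NPAS2 bind E-box elements and switch on the Per and Cry genes, whose products repress them. A secondary loop closes through the nuclear receptors REV-ERB alpha and beta (Nr1d1, Nr1d2), which repress Arntl, Npas2 and other genes at RORE elements, and the ROR receptors, which activate the same elements. The PAR bZIP activators DBP, TEF and HLF and the repressor NFIL3 compete for D-box elements. The DEC repressors BHLHE40 and BHLHE41 and the repressor CIART act back on E-box transcription.

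The E-box and RORE letters could be read directly in the promoters of 4 members. Promoter sequences of RefSeq (GRCm38.p6), covering 250 bases before to 50 after each start, were matched for 9 of the 10 members, with 2 starts for Tef. No entry was matched for Bhlhe40. Both strands were searched for the E-box CACGTG, for an RORE written as TAGGTCA or TGGGTCA, and for a D-box written as TTATGTAA, TTACGTAA or TTATATAA. Of 32851 promoters of the same length, 7.15% held the E-box, 6.45% the RORE and 1.59% the D-box, and no position of 1 motif overlapped another in the members. Ciart held 3 E-boxes, whose first bases lay 116, 58 and 44 bases before its start. Each Tef promoter held 1 E-box, 127 and 138 bases before the start, and Bhlhe41 held 1 at 153 bases before it. Nfil3 held 1 RORE at 12 bases before its start. Neither Nr1d1, Nr1d2, Rora, Dbp nor Hlf held any of these letters in the window, and no member held the D-box. The 250 bases before the start are shown for Ciart, the member with the most E-boxes, for the downstream Tef promoter, and for Nfil3, the member with an RORE. They are written 5′ to 3′ on the strand of the gene, with the motif in capitals (for Nfil3 it reads on the opposite strand).
Ciart, chr3:95882229-95882478, minus strand: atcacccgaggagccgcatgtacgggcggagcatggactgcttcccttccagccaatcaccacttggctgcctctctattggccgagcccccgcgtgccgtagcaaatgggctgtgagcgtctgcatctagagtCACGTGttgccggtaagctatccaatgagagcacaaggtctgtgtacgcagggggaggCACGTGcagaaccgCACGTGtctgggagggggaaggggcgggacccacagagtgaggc
Tef, chr15:81811164-81811413, plus strand: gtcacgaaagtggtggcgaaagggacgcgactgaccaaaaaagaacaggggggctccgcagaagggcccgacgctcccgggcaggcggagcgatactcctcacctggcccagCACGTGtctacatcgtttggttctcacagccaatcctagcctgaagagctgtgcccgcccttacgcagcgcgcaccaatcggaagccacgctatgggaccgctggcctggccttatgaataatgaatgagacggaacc
Nfil3, chr13:52981040-52981289, minus strand: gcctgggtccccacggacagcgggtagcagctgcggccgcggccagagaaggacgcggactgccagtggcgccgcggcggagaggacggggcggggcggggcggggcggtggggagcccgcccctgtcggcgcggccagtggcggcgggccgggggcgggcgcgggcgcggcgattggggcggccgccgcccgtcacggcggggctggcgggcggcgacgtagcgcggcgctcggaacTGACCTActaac

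Reads counted on genes ranged from 26.5 M to 41.6 M in the 6 controls and from 58.8 M to 71.9 M in the SD libraries, so depth differed with SD. Although the labels give male mice, 4 of the 6 controls held 25352 to 39358 reads of Xist, the RNA made from the inactive X chromosome of females, and 0 to 2 reads of 4 Y-linked genes. These were replicates 02 and 03 of the wild-type controls and 04 and 05 of the AcPb-/- controls. The other 8 libraries, every SD library included, held 5 to 13 Xist reads. Libraries with Xist reads occurred among controls and not among SD libraries, so the SD effects of the members are also given from a fit of all 12 libraries with a term for Xist reads and from a fit without those 4 libraries, and the other gene lists by their counts in both. Without the 4 libraries each genotype keeps 1 control, which is assumed to vary like the other groups. A call lost, kept or gained in a single genotype in that fit is therefore no result about a gene. Averaged over genotypes, the fit with the term and the fit without the 4 libraries give the same fold change by construction. Both then set the SD libraries against only the controls without Xist reads, so their equal values are no added check. Neuron markers were abundant, with all 5 detected and a summed level of 516214 to 620411 normalised reads per library. The 3 choroid plexus markers summed to 17380 in 1 AcPb-/- library after SD (replicate 04) against 205 to 483 in all controls, and the 4 red blood cell markers are listed at 0 in all libraries. Counts over all exons of Il1rap do not separate the AcPb isoform and so check no genotype. They were 1497 ± 21.9 (SD, n = 3) in wild-type and 1583 ± 66.1 (SD, n = 3) in AcPb-/- controls.

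Values by library are read counts after the 12 libraries were normalised together, so that they can be compared over the 4 groups. Fold changes are on the log2(normalised count + 1) scale with their SE, and p-values come from limma with Benjamini-Hochberg adjustment over all genes tested, called at an adjusted p under 0.05. Since tissue RNA was measured, fewer cells of a type and less RNA per cell cannot be told apart. The wild-type and AcPb-/- SD comparisons share no library.

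Of the 10 regulators, 7 passed the threshold in wild-type mice. Nr1d1, Nr1d2, Dbp, Tef and Ciart were downregulated, and Nfil3 and Bhlhe40 were upregulated. Of all 20417 genes tested, 12.2% were called lower and 13.2% higher. In AcPb-/- mice 5 members passed, with Nr1d1, Dbp, Tef and Ciart lower and Nfil3 higher, where 13.3% of 20574 genes were called lower and 14.1% higher. The median log2 fold change of the members was −0.32 in wild-type and −0.27 in AcPb-/- mice, against −0.004 and 0.014 over all genes tested. Averaged over both genotypes, 7 members passed, the same ones as in wild-type mice, with 20.3% of all genes called lower and 21.2% higher. These shares include genes with few reads. Of the 16062 genes with a mean of at least 10 normalised reads, 2390 were called lower and 2612 higher in wild-type mice. The numbers were 2662 and 2808 in AcPb-/- mice, and 4067 and 4240 in the average. The SD and control libraries did not overlap for 5 of the 10 members in each genotype. This was close to the share of all genes tested (40.2% in wild-type and 42.3% in AcPb-/- mice), so such separation is not particular to the members. Nr1d1, Dbp, Tef and Nfil3 were separated in both.

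**Figure D1:**
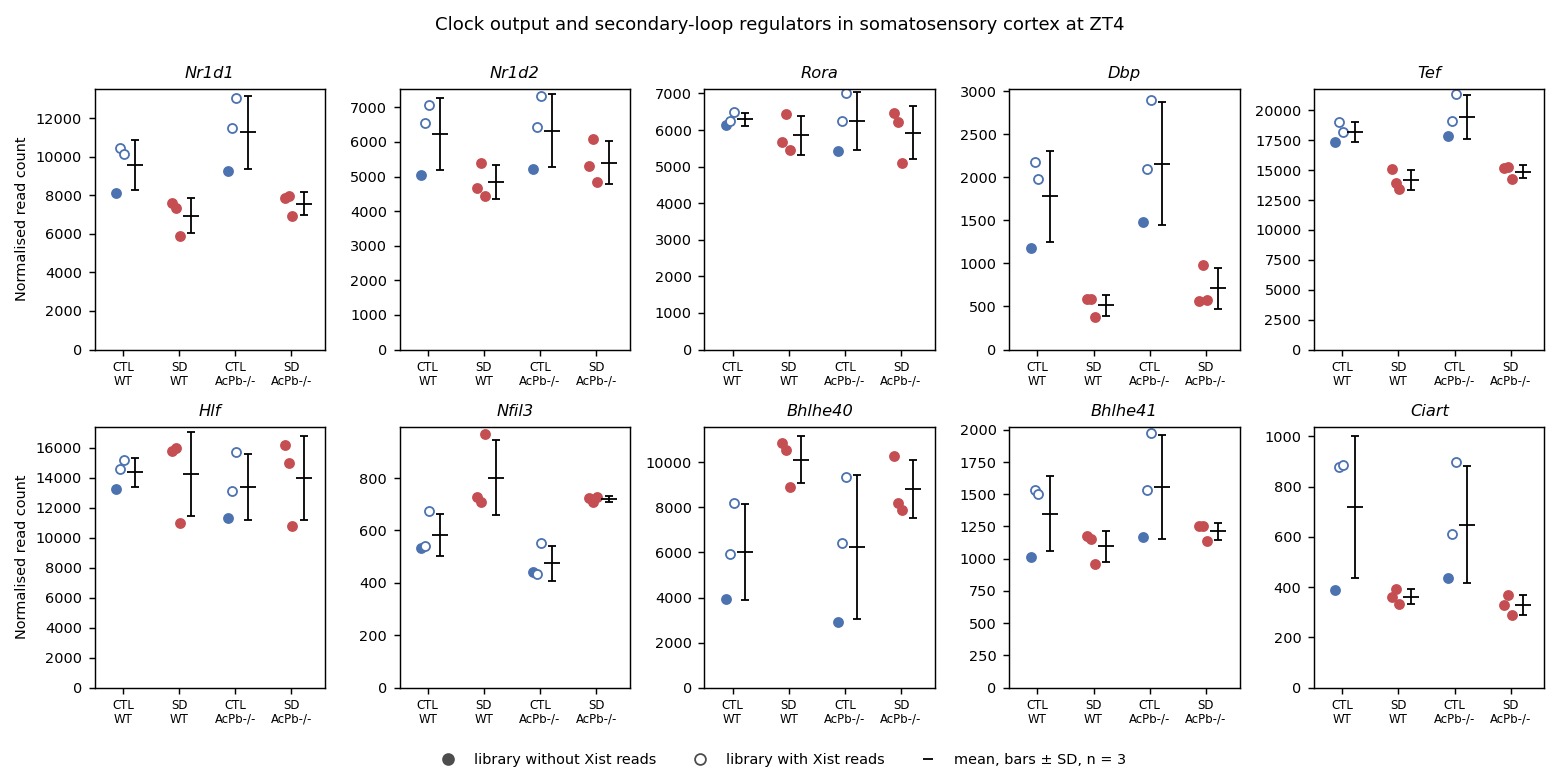
Normalised read counts (y axis, from 0) of the 10 regulators in each library of the 4 groups (x axis), with group means and SD (n = 3) as black bars. Open symbols are libraries with Xist reads, and all 4 of them are controls. Dbp, Nr1d1 and Tef lay lower and Nfil3 higher in every SD library than in every control of the same genotype.

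Compared per kilobase of exon, Nr1d1 had the highest mean of the members in both control groups and Bhlhe41 the lowest. In AcPb-/- controls Bhlhe41 (4.96 ± 1.27 RPKM, SD, n = 3) and Nfil3 (5.01 ± 0.687 RPKM, SD, n = 3) were within their spread of each other. The length counts all annotated exons of a gene, so the order depends on the annotation. On the RPKM scale, computed from recovered reads and the exon length of each gene, the wild-type controls had 66.6 ± 9.72 (SD, n = 3) for Nr1d1, the highest level, and 4.3 ± 0.973 (SD, n = 3) for Bhlhe41, the lowest. By the mean level over 12 libraries the order was Nr1d1, Tef, Hlf, Bhlhe40, Nr1d2, Rora, Dbp, Nfil3, Ciart and Bhlhe41. Only Nr1d2 (17.3 to 28.9 RPKM) and Rora (8.19 to 11.5 RPKM) were neighbours whose ranges over the 12 libraries did not overlap. All other neighbours in that order overlapped. The place of Dbp in this order moved with SD. It was above Rora in mean level in both control groups, 12.7 against 10.3 RPKM in wild-type mice, and below Nfil3 in both SD groups, 3.56 against 8.22 RPKM in wild-type mice.

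**Figure D2:**
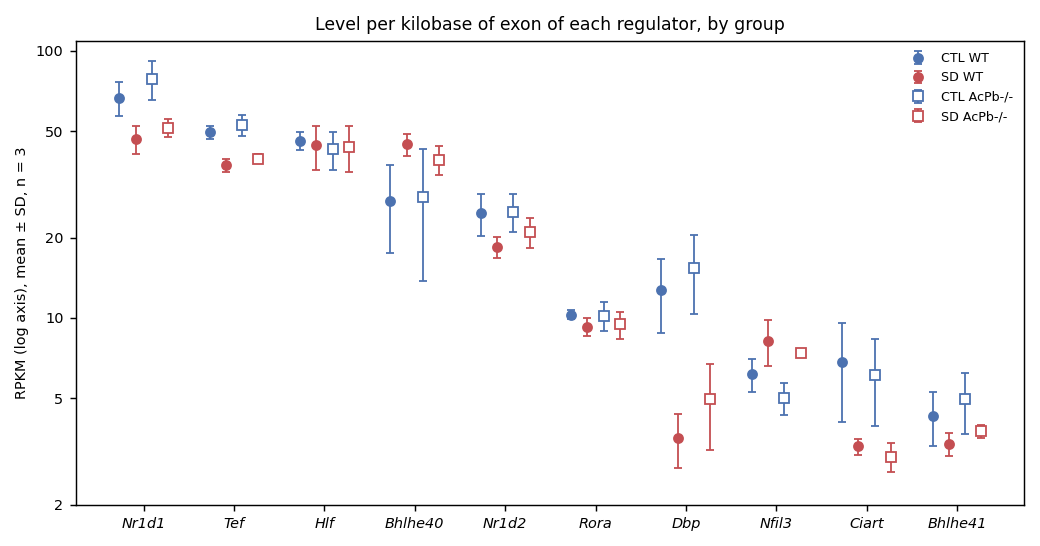
Mean RPKM with SD (n = 3, log axis) of each regulator in the 4 groups, ordered by the mean over all libraries. Nr1d1 reached 78.4 RPKM in AcPb-/- controls, and Ciart was lowest in the AcPb-/- SD group at 3.03 RPKM.

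Of the REV-ERB repressors, Nr1d1 fell in both genotypes and Nr1d2 passed in wild-type mice, calls that were lost in each genotype once Xist reads were a term. Nr1d1 (chr11:98767932-98775333, minus strand) had 8096, 10482 and 10131 normalised reads in the wild-type controls and 7593, 7325 and 5895 after SD. The AcPb-/- mice had 9285, 11488 and 13047 reads in controls and 7846, 7975 and 6907 after SD. Every SD library was below every control of its genotype, and the control nearest to the SD libraries was in both genotypes the one without Xist reads. On the log2 scale the change was −0.46 ± 0.11 in wild-type mice (limma adjusted p = 0.0148) and −0.56 ± 0.12 in AcPb-/- mice (limma adjusted p = 0.00935). Averaged over genotypes it was −0.51 ± 0.09. With the Xist term it was −0.26 ± 0.09, still past the threshold, and without the 4 libraries it was −0.26 ± 0.11, no longer past it. Neither genotype alone passed with the Xist term (−0.21 ± 0.11 in wild-type and −0.31 ± 0.11 in AcPb-/- mice) or without the 4 libraries (−0.23 ± 0.16 and −0.30 ± 0.16). The wild-type call was also lost without control replicate 02, at −0.39. Exons of Nr1d1 share 263 bases, 8.5% of its exon length, with Thra on the opposite strand, and the strand setting of the counting is not given in the sources used here. Thra, the thyroid hormone receptor alpha gene, had a log2 fold change of 0.05 ± 0.10 in wild-type and −0.01 ± 0.11 in AcPb-/- mice and did not pass.

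Nr1d2 (chr14:18204054-18239127, minus strand) had 5051, 6544 and 7074 reads in wild-type controls and 4672, 5383 and 4436 after SD. Its values in AcPb-/- mice were 5221, 6432 and 7324 in controls and 5293, 6077 and 4838 after SD. The groups overlapped in both genotypes, since the control without Xist reads lay inside the SD range. SD changed the level by −0.36 ± 0.12 on the log2 scale in wild-type mice (limma adjusted p = 0.0483) and −0.22 ± 0.13 in AcPb-/- mice (limma adjusted p = 0.244). The wild-type call rested on most of its libraries, as it was lost when any library other than control replicate 01 was left out, with log2 fold changes of −0.26 to −0.44. The AcPb-/- value passed when control replicate 03 was left out, at −0.35. Of the 12 fits of the average over genotypes that left out 1 library, 4 passed. The average over genotypes of −0.29 ± 0.10 passed, and became −0.01 ± 0.09 with the Xist term and −0.01 ± 0.11 without the 4 libraries, neither past the threshold. In wild-type mice the log2 fold change was −0.08 ± 0.11 with the Xist term and −0.07 ± 0.15 without the 4 libraries, and in AcPb-/- mice it was 0.05 ± 0.11 and 0.04 ± 0.15, none of them past it.

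Rora (chr9:68653786-69388246, plus strand), the activator that opposes the REV-ERBs at ROREs, did not pass in either genotype. It had 6151, 6251 and 6495 reads in wild-type controls and 5668, 6448 and 5450 after SD, and 5430, 6258 and 7017 in AcPb-/- controls and 6460, 6218 and 5095 after SD. SD and control libraries overlapped in both genotypes. Its log2 fold change was −0.11 ± 0.07 in wild-type mice (95% confidence interval −0.27 to 0.05, limma adjusted p = 0.294) and −0.07 ± 0.11 in AcPb-/- mice (−0.33 to 0.19, limma adjusted p = 0.683). The average over genotypes was −0.09 ± 0.07, with 0.02 ± 0.09 under the Xist term and 0.02 ± 0.11 without the 4 libraries, and none of these or of the values of a single genotype in those fits passed.

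Among the PAR bZIP activators, Dbp and Tef fell in both genotypes, Dbp by the larger amount, and Hlf did not pass. Dbp (chr7:45705088-45710203, plus strand), an output gene whose product drives D-box transcription, had 1176, 2176 and 1980 reads in wild-type controls and 583, 587 and 374 after SD. Dbp had 1477, 2098 and 2899 reads in AcPb-/- controls and 569, 985 and 576 after SD. The lowest control was above the highest SD library in both genotypes, also when only the controls without Xist reads (1176 and 1477) were considered. Dbp after SD was at 0.29 of the control level in wild-type mice (log2 −1.77 ± 0.23, limma adjusted p = 0.000831) and at 0.33 of it in AcPb-/- mice (log2 −1.59 ± 0.27, limma adjusted p = 0.00353). These calls were kept in each fit that left out 1 library. Averaged over genotypes the log2 fold change was −1.68 ± 0.21. It was −1.16 ± 0.22 with the Xist term and −1.16 ± 0.28 without the 4 libraries, past the threshold in both. In a single genotype, Dbp passed with the Xist term (−1.25 ± 0.26 in wild-type and −1.08 ± 0.26 in AcPb-/- mice) and did not pass without the 4 libraries (−1.22 ± 0.40 and −1.10 ± 0.40). Dbp shares 539 exon bases, 18% of its exon length, with Sphk2 on the opposite strand. Sphk2, a sphingosine kinase gene, did not pass, with 0.09 ± 0.08 in wild-type and −0.05 ± 0.07 in AcPb-/- mice on the log2 scale.

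Tef (chr15:81802421-81826863, plus strand) had 17393, 19026 and 18172 reads in wild-type controls and 15132, 13926 and 13467 after SD. Reads in AcPb-/- mice were 17831, 19115 and 21401 in controls and 15152, 15252 and 14262 after SD. Its controls with and without Xist reads were all above the SD libraries. Tef changed by −0.36 ± 0.07 on the log2 scale in wild-type mice (limma adjusted p = 0.00397) and −0.38 ± 0.08 in AcPb-/- mice (limma adjusted p = 0.00808), and both calls were kept in each fit that left out 1 library. The average of −0.37 ± 0.05 became −0.28 ± 0.06 with the Xist term and −0.28 ± 0.06 without the 4 libraries, past the threshold in both. Each genotype passed with the Xist term (−0.27 ± 0.08 in wild-type and −0.29 ± 0.08 in AcPb-/- mice), and neither did without the 4 libraries (−0.30 ± 0.09 and −0.26 ± 0.09).

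Hlf (chr11:90336536-90390895, minus strand) had 13283, 14595 and 15200 reads in wild-type controls and 15792, 15988 and 10982 after SD. The AcPb-/- controls had 11305, 13107 and 15708 reads and the AcPb-/- SD libraries 16194, 14959 and 10806. In both SD groups replicate 04 was the lowest and the other 2 libraries were above their controls' mean, so the SD groups spanned their controls. Hlf had a log2 fold change of −0.03 ± 0.13 in wild-type mice (95% confidence interval −0.31 to 0.25, limma adjusted p = 0.887) and of 0.06 ± 0.16 in AcPb-/- mice (−0.31 to 0.43, limma adjusted p = 0.815). The average was 0.01 ± 0.12, with 0.18 ± 0.16 under the Xist term and 0.18 ± 0.21 without the 4 libraries, and Hlf passed in no genotype in either fit. Leaving out the wild-type SD replicate 04 gave 0.15, which did not pass.

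Nfil3, the repressor that competes with the PAR bZIP proteins at D-boxes, rose in both genotypes. Nfil3 (chr13:52967209-52981073, minus strand) had 533, 539 and 676 reads in wild-type controls and 729, 709 and 968 after SD. AcPb-/- mice had 440, 433 and 550 reads in controls and 723, 707 and 729 after SD. All SD libraries were above all controls of their genotype, and the AcPb-/- SD libraries varied little, with a CV of 1.53%. The log2 change was 0.45 ± 0.13 in wild-type mice (limma adjusted p = 0.0311) and 0.61 ± 0.10 in AcPb-/- mice (limma adjusted p = 0.00392). In wild-type mice the call was lost without control replicate 01 (0.39), control replicate 02 (0.40), SD replicate 01 (0.51) or SD replicate 04 (0.31). All 6 such fits kept the call in AcPb-/- mice. The average of 0.53 ± 0.09 was 0.64 ± 0.13 with the Xist term and 0.64 ± 0.13 without the 4 libraries, past the threshold in both. With the Xist term both genotypes passed (0.56 ± 0.16 in wild-type and 0.72 ± 0.16 in AcPb-/- mice), and without the 4 libraries neither passed (0.57 ± 0.18 and 0.71 ± 0.18). Nfil3 was the only member for which the control without Xist reads was not the lowest in both genotypes.

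Of the DEC repressors, Bhlhe40 rose in wild-type mice, and in AcPb-/- mice it did not pass with all controls but passed with the Xist term. Bhlhe41 did not pass in either genotype. Bhlhe40 (chr6:108660629-108666925, plus strand) had 3948, 5933 and 8183 reads in wild-type controls and 10878, 10565 and 8928 after SD. Bhlhe40 reads in AcPb-/- mice were 2933, 6422 and 9333 in controls and 10286, 8218 and 7908 after SD. The wild-type groups were apart, whereas the highest AcPb-/- control exceeded 2 of the SD libraries. Controls varied more than SD libraries in both genotypes, with a CV of 35.2% against 10.3% in wild-type and 51.4% against 14.7% in AcPb-/- mice. The log2 fold change was 0.81 ± 0.20 in wild-type mice (limma adjusted p = 0.0167) and 0.65 ± 0.35 in AcPb-/- mice (limma adjusted p = 0.211). The wild-type call was lost without control replicate 02 (0.83), SD replicate 01 (0.75) or SD replicate 02 (0.77), and the value dropped to 0.53 without control replicate 01, while still called. The AcPb-/- value passed without control replicate 05, at 1.01. In the average over genotypes, 8 of the 12 fits that left out 1 library passed. The average of 0.72 ± 0.24 became 1.46 ± 0.17 with the Xist term and 1.46 ± 0.13 without the 4 libraries, past the threshold in all 3 fits. In AcPb-/- mice the log2 fold change was 1.38 ± 0.21 with the Xist term and 1.58 ± 0.18 without the 4 libraries, and in wild-type mice it was 1.55 ± 0.21 and 1.35 ± 0.18. The 2 values with the Xist term were past the threshold. Those without the 4 libraries rest on 1 control in each genotype and are given as effect sizes only.

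Bhlhe41 (chr6:145858243-145865558, minus strand) had 1013, 1530 and 1503 reads in wild-type controls and 1173, 1154 and 958 after SD. The AcPb-/- mice had 1168, 1531 and 1972 reads in controls and 1255, 1250 and 1138 after SD. The control without Xist reads lay inside the SD range in both genotypes, and the other controls lay above it. The log2 fold change was −0.28 ± 0.15 in wild-type mice (limma adjusted p = 0.193) and −0.32 ± 0.16 in AcPb-/- mice (limma adjusted p = 0.177). It passed without the control that has no Xist reads, at −0.48 in wild-type (control replicate 01) and −0.52 in AcPb-/- mice (control replicate 03). The average of −0.30 ± 0.13 became 0.08 ± 0.10 with the Xist term and 0.08 ± 0.09 without the 4 libraries, none of them past the threshold, nor was either genotype alone in those fits. Of its exon bases, 19.0% are shared with the transcript Gm43909 on the opposite strand. Overlaps of this kind covered at most 2.5% of the exon bases of Rora, Tef and Bhlhe40.

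Ciart, whose promoter holds 3 E-boxes, fell in both genotypes when all controls were used, and did not pass once Xist reads were a term. Ciart (chr3:95878503-95882251, minus strand) had 390, 878 and 886 reads in wild-type controls and 361, 391 and 332 after SD. Ciart had 437, 609 and 898 reads in AcPb-/- controls and 327, 367 and 289 after SD. The wild-type control without Xist reads lay inside the SD range, and that of the AcPb-/- mice lay above it. For Ciart the log2 fold change was −0.90 ± 0.26 in wild-type mice (limma adjusted p = 0.029) and −0.92 ± 0.23 in AcPb-/- mice (limma adjusted p = 0.0181). The wild-type call was lost without any library other than control replicate 01, at −0.70 to −0.96. The AcPb-/- call was lost without control replicate 04 (−0.94), SD replicate 02 (−0.93) or SD replicate 04 (−0.84). The average of −0.91 ± 0.21 became −0.27 ± 0.14 with the Xist term and −0.27 ± 0.11 without the 4 libraries, neither past the threshold. Neither genotype passed alone with the Xist term (−0.25 ± 0.18 in wild-type and −0.28 ± 0.18 in AcPb-/- mice) or without the 4 libraries (−0.11 ± 0.16 and −0.42 ± 0.16). Of the stretches of 100 bases in Ciart transcripts, 4.0% also occur in Gm9176, so a small part of its reads could be shared.

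**Figure D3:**
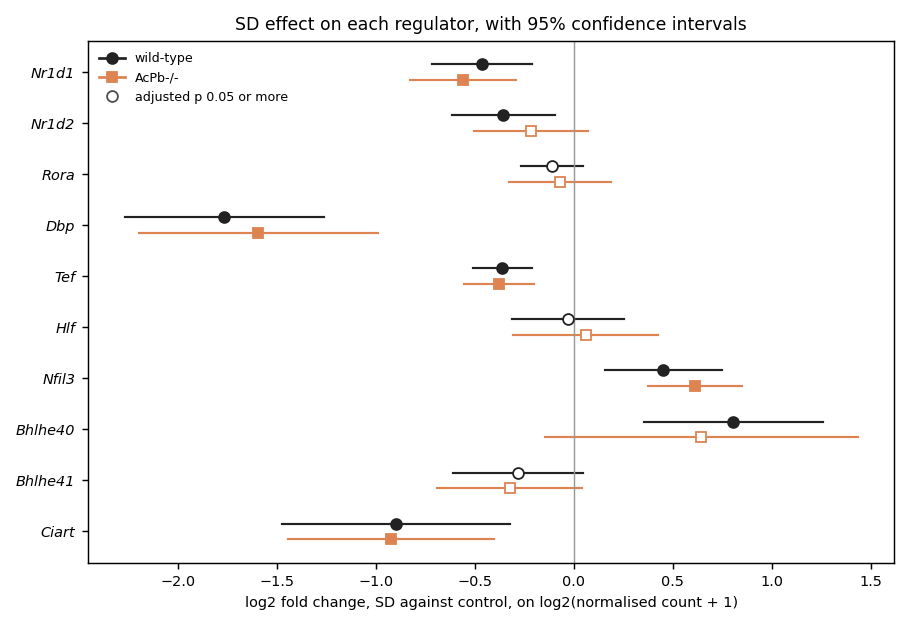
Log2 fold change of SD against control (x axis) for each regulator in wild-type (circles) and AcPb-/- mice (squares), with 95% confidence intervals from fits of 6 libraries. Filled symbols passed the adjusted p threshold. Dbp has the lowest values, −1.77 and −1.59, and the 2 genotypes' intervals overlap for all members.

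Of the 10 members, 3 passed the test of the term for Xist reads. The control without Xist reads was the lowest of its 3 controls for 10 of 10 members in wild-type and 9 of 10 in AcPb-/- mice. It was the lowest in both genotypes for 9 members, and for 16.4% of the 20978 genes tested. In the fit of 12 libraries, the coefficient of the Xist term was positive for all 10 members. Those that passed were Bhlhe40 (1.11 ± 0.18, limma adjusted p = 0.0213), Ciart (0.97 ± 0.15, limma adjusted p = 0.0192) and Bhlhe41 (0.58 ± 0.10, limma adjusted p = 0.0354). Of all genes, 0.4% passed in either direction, which was 84 of 20978. Dbp had 0.78 ± 0.23 (limma adjusted p = 0.173), Nr1d2 0.41 ± 0.10 (limma adjusted p = 0.112) and Nr1d1 0.37 ± 0.10 (limma adjusted p = 0.143). With 1 control without Xist reads in each genotype, sex and any other difference between these animals cannot be told apart. With the Xist term, 2 members were higher (Nfil3, Bhlhe40) and 3 lower (Nr1d1, Dbp, Tef) in the average over genotypes, with 16% of all genes called higher and 14.7% lower. Without the 4 libraries, 2 were higher (Nfil3, Bhlhe40) and 2 lower (Dbp, Tef), with 13.2% of 20768 genes called higher and 11.5% lower.

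**Figure D4:**
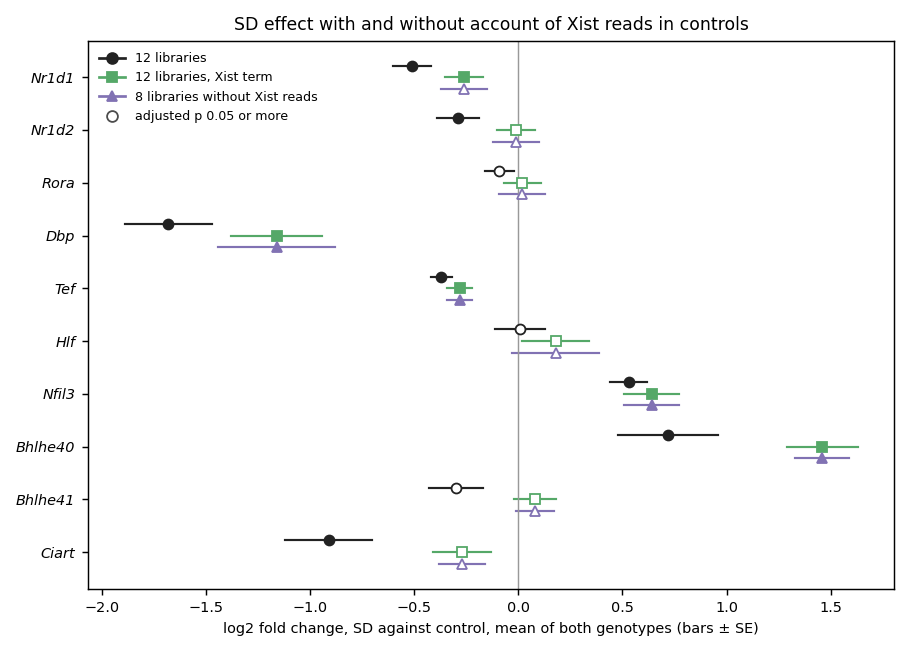
Log2 fold change of SD averaged over genotypes (x axis, bars ± SE) for each regulator in the fit of 12 libraries (circles), with a term for Xist reads (squares) and from the 8 libraries without Xist reads (triangles). Filled symbols passed the threshold. Squares and triangles have equal fold changes by construction. Bhlhe40 moved from 0.72 to 1.46, Ciart from −0.91 to −0.27, and Dbp stayed below −1.1.

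No member passed between the genotypes. In undisturbed mice 0 of 10 members passed, with each of limma, DESeq2 and edgeR. Of 20273 genes limma called 0.0197%, which was 4 genes, where DESeq2 called 104 and edgeR 8. In limma 1 member had an unadjusted p under 0.05. That was Nfil3, which had the largest absolute difference, −0.30 ± 0.13 on the log2 scale in AcPb-/- against wild-type controls (limma adjusted p = 0.567). After SD, 0 of 10 members passed with each of the 3 tools, and 0 had an unadjusted p under 0.05 in limma. Of 20621 genes limma called 0.0145%, which was 3 genes, where DESeq2 called 99 and edgeR 9. The largest difference was that of Dbp, at 0.44 ± 0.23 (limma adjusted p = 0.861), with 569, 985 and 576 reads in AcPb-/- and 583, 587 and 374 in wild-type mice. Tested as an interaction, the SD effect differed between genotypes for 0 members with each tool, none of them with an unadjusted p under 0.05 in limma. It differed for 0% of 20978 genes with limma, of which 839 had an unadjusted p under 0.05. DESeq2 called 1 gene and edgeR called 0. For Dbp the interaction was 0.17 with a 95% confidence interval of −0.73 to 1.07.

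Of the core clock genes, the 3 activators passed in both genotypes and 1 to 3 of the 5 Per and Cry genes did. All 3 clock activators rose in both genotypes: Arntl by 0.74 ± 0.08 and 0.63 ± 0.09 on the log2 scale in wild-type and AcPb-/- mice, Clock by 0.33 ± 0.06 and 0.35 ± 0.07, and Npas2 by 0.69 ± 0.11 and 0.52 ± 0.14. Of the 5 Per and Cry genes, Per2 (1.04 ± 0.14) and Cry1 (0.38 ± 0.12) rose and Per3 (−0.26 ± 0.08) fell in wild-type mice. Per2 (0.90 ± 0.21) passed in AcPb-/- mice, where Per3 (−0.24 ± 0.11) and Cry1 (0.18 ± 0.08) did not. Cry2 had −0.04 ± 0.07 in wild-type and −0.19 ± 0.08 in AcPb-/- mice and did not pass. Per1 had 3114 and 3331 normalised reads in the controls without Xist reads and 5066 to 8191 in those with them, and did not pass (0.34 ± 0.23 and 0.28 ± 0.27). With the Xist term, Arntl, Clock and Npas2 were higher in wild-type mice, and Arntl and Clock in AcPb-/- mice, where Npas2 (0.21 ± 0.09) did not pass. In that fit Per1 and Per2 passed as higher in both genotypes (Per1 by 0.97 ± 0.15 averaged over them), Cry1 passed in wild-type mice (0.43 ± 0.13), and Per3 (−0.16 ± 0.13 and −0.15 ± 0.13) passed in neither. Calls of a single genotype without the 4 libraries rest on 1 control and are not given for these genes. Averaged over genotypes without the 4 libraries, all 3 activators, Per1 and Per2 passed.

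Of 17 other clock partners, 2 were higher and 4 lower in wild-type mice, and 3 higher and 3 lower in AcPb-/- mice. Of all genes tested, 13.2% were called higher and 12.2% lower in wild-type mice, and 14.1% and 13.3% in AcPb-/- mice. Of the other ROR receptors, Rorb fell in wild-type mice (−0.56 ± 0.07) and had −0.57 ± 0.20 in AcPb-/- mice, which did not pass. Of 6 clock kinase and ubiquitin ligase genes, 1 was higher and 1 lower in each genotype. Csnk1e, a kinase acting on PER proteins, was the higher one in both (0.26 ± 0.05 and 0.23 ± 0.06). The lower one was Fbxl21 in wild-type (−0.42 ± 0.13) and Csnk1d in AcPb-/- mice (−0.26 ± 0.05). Of 4 genes of the REV-ERB corepressor complex, Ncor1 rose (0.29 ± 0.08 and 0.36 ± 0.08) and Tbl1xr1 fell (−0.22 ± 0.05 and −0.27 ± 0.08). Of 5 other clock-controlled output genes, Usp2 fell in both genotypes (−0.58 ± 0.10 and −0.65 ± 0.09), and Nampt rose in AcPb-/- mice (0.24 ± 0.07). Of 11 glucocorticoid-induced genes, a list that responds to the adrenal stress hormone, 8 were higher and 1 lower in each genotype, with median log2 fold changes of 0.72 and 0.77. Plin4, a lipid droplet protein gene, had the largest (2.91 ± 0.30 and 2.77 ± 0.27), followed by Sult1a1 in wild-type (1.52 ± 0.13) and Cdkn1a in AcPb-/- mice (1.61 ± 0.17). Their part in the members' changes was not tested. Of 10 immediate early genes, 0 passed in wild-type mice with limma, where 2 had an unadjusted p under 0.05, DESeq2 called 1 and edgeR called 2. In AcPb-/- mice 1 was higher (Fosb) and 2 lower (Junb, Ier2). These counts moved with the Xist libraries. With the Xist term 6 immediate early genes were higher and 0 lower in each genotype, and without the 4 libraries 5 were higher in wild-type mice, and 2 higher and 1 lower in AcPb-/- mice. Of the glucocorticoid-induced genes 8 were higher and 0 lower in each genotype with the Xist term, and 4 in wild-type and 5 in AcPb-/- mice were higher without the 4 libraries. Of the 17 ROR, kinase and ligase, corepressor and output genes, 1 was higher and 3 lower in wild-type mice and 4 were higher and 3 lower in AcPb-/- mice with the Xist term. Without the 4 libraries limma called 0 of them in wild-type mice, where 5 had an unadjusted p under 0.05, and 1 in AcPb-/- mice (Usp2, −0.56 ± 0.10).

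Markers of other cell types moved with SD in part. Of all 40 cell type markers tested, 3 were higher and 9 lower in wild-type mice, and 2 higher and 5 lower in AcPb-/- mice. Of all genes tested, 13.2% were called higher and 12.2% lower in wild-type mice, and 14.1% and 13.3% in AcPb-/- mice. Of 5 oligodendrocyte markers 3 were lower in wild-type mice. In AcPb-/- mice 0 passed with limma, DESeq2 or edgeR and 0 had an unadjusted p under 0.05, and the summed level ranged from 48839 to 114875 in controls and from 66289 to 99053 after SD. In wild-type mice it ranged from 98928 to 124730 in controls and from 81274 to 113995 after SD. With the Xist term, 4 oligodendrocyte markers were lower in wild-type and 1 in AcPb-/- mice, with median log2 fold changes of −0.87 and −0.43. Of 4 endothelial markers, 2 were higher and 1 lower in each genotype, with sums of 7116 to 7614 over all controls and 7117 to 9546 over the SD libraries. Of the 3 choroid plexus markers 1 was higher in wild-type mice (Kl, 0.56 ± 0.17). Ttr went the other way (−0.80 ± 0.37) and Folr1, with few reads, had 1.14 ± 0.41, and neither passed. Microglia markers summed to 8529 to 10403 after SD in AcPb-/- mice, below their controls (11404 to 12456), and 2 of 5 were lower. Striatal neuron markers summed to 7960 to 13476 in wild-type controls and 7428 to 10031 after SD, with 2 of 6 lower. In AcPb-/- mice they summed to 8777 to 9568 in controls and 9844 to 11775 after SD. There 0 of 6 passed with limma, DESeq2 or edgeR, and 1 had an unadjusted p under 0.05. Their median log2 fold change was −0.40 in wild-type and 0.26 in AcPb-/- mice. Of 5 astrocyte markers 2 were lower in wild-type and 1 in AcPb-/- mice, and of 3 meningeal fibroblast markers 1 was lower in each genotype. Of 5 neuron markers, limma called 0 in each genotype, where 3 had an unadjusted p under 0.05, DESeq2 called 4 in wild-type and 3 in AcPb-/- mice, and edgeR called 2 in each. Of 4 thalamus markers limma called 0 in each genotype, with 0 and 1 at an unadjusted p under 0.05, and DESeq2 called 0 and 1 and edgeR 0 and 0. Of all 40 cell type markers tested, 2 were higher and 10 lower in wild-type and 2 higher and 6 lower in AcPb-/- mice with the Xist term. Without the 4 libraries limma called 0 in wild-type mice, where 8 had an unadjusted p under 0.05, and 1 higher and 1 lower in AcPb-/- mice. The part of these cell types in the members' changes was not tested. Without the AcPb-/- SD library with choroid plexus RNA, 4 members passed in that genotype (Nr1d1, Dbp, Tef, Nfil3).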

How the data were processed

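Somatosensory cortex mRNA of 12 mice was sequenced in 4 groups of 3 (TruSeq Stranded mRNA libraries). The authors aligned the reads with HISAT2 (2.2.1, per the labels) to mm10 and compared pairs of groups with DESeq2 (1.31.16, per the labels). The labels name featureCounts and the paper's methods name HTSeq for the counting, and the annotation and strand setting are not given in the sources used here. The deposited per-library signal is the read count of a gene divided by the library's size factor, in 5 tables of 24421 genes. The authors' columns of fold changes, p-values and Wald statistics were not used. Size factors were undone, and 100.00% of 732630 values came within 0.01 of a whole read.

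limma (3.58.1, R 4.3.3, with a variance trend) was run on log2(deposited value + 1) of the 6 libraries of a table. Genes with a value above 0 in at least 1 library were tested, with Benjamini-Hochberg adjustment and 4 residual degrees of freedom. The interaction and the average over genotypes came from 12 libraries normalised together by median of ratios (8 residual degrees of freedom). RPKM was computed from recovered reads, the total on genes and the GENCODE M21 exon length. Positions are from GENCODE M21 (GRCm38). The plan named edgeR for raw counts and limma for normalised values, and the tables hold the latter. Tested on simulated data for the wild-type SD comparison (20063 genes), limma recovered 105 of 105 genes changed by 1 on the log2 scale and 51 of 95 changed by 0.5. In the interaction (20686 genes) it recovered 73 of 93 and 11 of 107. The simulation gave all genes the same low dispersion, changed only genes with many reads and had no split among controls. Among the members, the CV in wild-type controls ran from 2.81% for Rora to 39.6% for Ciart. Recovery for genes that vary as much as Ciart was not tested. No 2 replicates were as alike as repeats of 1 library would be.

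Alternatives were DESeq2 (1.42.0) and edgeR (4.0.16) on recovered reads, pseudocounts of 0.1 and 10, a mean of at least 10, all 4 groups in one fit, an Xist term, thinning to the smallest total, a block for the replicate number, and leaving out 1 library at a time. Leaving out the 4 libraries with Xist reads was added after seeing the data. The members and gene lists were chosen with earlier results of these data known. All 10 members are given for SD. For genotype and interaction, members past the threshold and the one with the largest absolute difference are given. Of other lists, the clock activators and the Per and Cry genes are given, and otherwise up to 2 passing genes with the largest change. Fosb, Thra, Sphk2, Kl, Ttr and Folr1 were added once their values were known.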

Additional observations from a re-analysis of the deposited data

How the results depend on the processing

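Of the 33 fold changes of members followed over alternatives, 582 refits gave the same direction and the same side of the threshold in 466, lost the call in 73, gained one in 11 and turned the sign in 32. Turned signs were all of values that were not past the threshold. The 7 members called in wild-type mice became 4 with the Xist term and 0 with the replicate block. They became 2 to 7 when single libraries were left out. The count was 2 without control replicate 02, 3 without SD replicate 01, and 4 when either of the other SD libraries was dropped. In AcPb-/- mice the 5 became 0 with the replicate block, and 4 to 7 when single libraries were left out. Calls of a single genotype without the 4 libraries with Xist reads are not counted here, since they rest on 1 control. Averaged over genotypes the 7 became 4 without the 4 libraries and 5 to 8 when single libraries were left out.

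With the Xist term the sign turned for Rora (0.004 in wild-type, 0.04 in AcPb-/- mice, 0.02 averaged), Hlf in wild-type mice (0.14), Nr1d2 in AcPb-/- mice (0.05) and Bhlhe41 (0.10, 0.06 and 0.08). Without the 4 libraries it turned for Rora in AcPb-/- mice (0.12) and averaged (0.02), Hlf in wild-type mice (0.08), Nr1d2 in AcPb-/- mice (0.04) and Bhlhe41 (0.11, 0.06 and 0.08). The replicate block gave Hlf 0.19 in wild-type mice. With single libraries left out, Hlf ran from −0.12 to 0.15 in wild-type mice, from −0.06 to 0.23 in AcPb-/- mice and from −0.04 to 0.10 averaged, Rora from −0.17 to 0.03 in AcPb-/- mice, and the interaction of Dbp from −0.09 to 0.44. The cause was not tested.

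The replicate numbers are shared by at most 2 pairs in a comparison. Deviations of same-numbered samples correlated by −0.14 to 0.23 where 2 pairs were shared and by −0.43 for the only pair of the controls, so they were not taken as pairs. With the block, 0 genes were called in either SD comparison, where 1 residual degree of freedom was left, and 7752 in the average. No paired analysis was possible for the controls of both genotypes because they share only 1 number.

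Over all alternatives the genes called ranged from 0 to 6222 in wild-type mice (5186 in the reported fit), from 0 to 6485 in AcPb-/- mice (5633), from 5136 to 8786 averaged (8707), from 0 to 168 between controls (4), from 0 to 99 between genotypes after SD (3) and from 0 to 9 for the interaction (0). With DESeq2 the counts were 5378, 5820, 8569, 104, 99 and 1 in that order, and with edgeR 5368, 5682, 8575, 8, 9 and 0. Thinned to the smallest total, 5 members passed in each genotype.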
